A study of Mus musculus with 90 samples.

Results

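The 8 genes described here build or carry the glycans that selectins bind: Selplg, Cd44, Gcnt1, B4galt1, St3gal4, St3gal6, Fut7 and Fut4. They were taken by gene symbol from a table of read counts that holds 23420 genes, and all 8 were in it. Each was measured by RNA sequencing of sorted mouse T cells in 90 libraries that form 30 groups. The Treg series has 30 libraries from animals labelled WT, with 3 libraries in each of 10 groups. Regulatory T cells (Tregs) sorted as IL10, Ebi3 or DN came from tumours, from non-draining lymph nodes and from a source labelled Naive. Effector T cells (Teff), whose source label reads NaiveTcell, complete the series. Ebi3 is a subunit of the cytokine IL-35, and the labels do not expand DN. The CD8 series has 60 libraries of CD8 T cells. It holds CD8 T cells of a non-draining node (NDLN) and 4 tumour populations, which are NEG (negative for PD-1 and TIM-3), INT (PD-1 intermediate, TIM-3 negative), SP (PD-1 high, TIM-3 negative) and DP (PD-1 high, TIM-3 positive). Each of these 5 populations was taken from 4 DKO, 3 Ebi3L, 2 Il10 and 3 yfp libraries. The design text describes Treg-specific deletions of the cytokines IL-10 and IL-35, singly and together, so the mutations lay in Tregs and not in the CD8 cells that were sequenced. No label used here names the driver of the deletion, the tumour line, or the age or sex of the animals. The labels do not say whether replicates stem from different mice. The spread behind each p-value is therefore that between these libraries and may be technical.

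Selectins are adhesion receptors that catch a leukocyte on a vessel wall by binding a small fucosylated and sialylated glycan on its surface. On T cells the main carrier is PSGL-1, the product of Selplg, and a glycoform of CD44 can also serve. The glycan is built in the Golgi on an O-linked core: Gcnt1 makes the core 2 branch, B4galt1 adds galactose, St3gal4 and St3gal6 add sialic acid, and Fut7 or Fut4 adds fucose. Naive T cells carry PSGL-1 with little of this glycan, and activated T cells in mice switch on Gcnt1 and Fut7.

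On the mouse build GRCm38 with the GENCODE annotation, Gcnt1 lies at chr19:17326141-17372844 (minus strand), Fut7 at chr2:25423267-25426374 (plus strand) and Cd44 at chr2:102811141-102901665 (minus strand). Selplg lies at chr5:113818536-113832644, B4galt1 at chr4:40804602-40854005 and St3gal6 at chr16:58468125-58524243, all on the minus strand. Fut4 at chr9:14748320-14752393 and St3gal4 at chr9:35046576-35119268 share a chromosome and the minus strand. St3gal6 overlaps the opposite-strand gene Dcbld2 over 1603 bases, and St3gal4 overlaps the opposite-strand transcript 4930581F22Rik over 2541 bases. These overlaps are of whole gene spans and not of exons alone. Whether counting used strand is not stated, and whether reads from those stretches were assigned to the other gene was not tested. The stretch of 250 bases before the most upstream RefSeq start is printed for Gcnt1, Fut7 and Cd44, the 3 members that were higher together in IL10 and Ebi3 Tregs than in DN Tregs outside the tumour. RefSeq windows were found for 7 of the 8 members (GRCm38.p6). Each is written 5′ to 3′ on the gene's own strand, and capitals mark a match to one of 4 motifs searched on both strands. The motifs were the T-box core motif TCACAC, the RUNX motif TGTGGT, the AP-1 motif TGANTCA and the STAT motif TTCNNNGAA.
Gcnt1, chr19:17372845-17373094, minus strand: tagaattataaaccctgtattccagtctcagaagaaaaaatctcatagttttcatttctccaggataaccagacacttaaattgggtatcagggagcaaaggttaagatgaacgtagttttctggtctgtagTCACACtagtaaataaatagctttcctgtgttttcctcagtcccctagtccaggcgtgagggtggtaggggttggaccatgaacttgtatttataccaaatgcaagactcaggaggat
Fut7, chr2:25422992-25423241, plus strand: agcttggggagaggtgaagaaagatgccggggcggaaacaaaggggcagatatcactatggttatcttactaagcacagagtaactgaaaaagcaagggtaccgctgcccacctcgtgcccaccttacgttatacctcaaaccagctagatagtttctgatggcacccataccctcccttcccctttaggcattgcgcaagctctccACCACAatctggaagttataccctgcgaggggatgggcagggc
Cd44, chr2:102901666-102901915, minus strand: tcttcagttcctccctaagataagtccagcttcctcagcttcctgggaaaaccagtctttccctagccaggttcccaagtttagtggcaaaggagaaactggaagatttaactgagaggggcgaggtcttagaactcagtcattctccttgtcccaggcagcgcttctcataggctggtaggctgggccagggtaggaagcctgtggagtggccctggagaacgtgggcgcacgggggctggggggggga
The Gcnt1 stretch held 1 T-box core motif, whose first base lay 118 bases before the start. The Fut7 stretch held 1 RUNX motif, on the opposite strand, whose first base lay 43 bases before the start, and the Cd44 stretch held none of the 4 motifs. The windows of the further RefSeq starts of Gcnt1 and Fut7 held none either. Among members not printed, the most upstream windows of St3gal6 and B4galt1 held a RUNX motif, and that of B4galt1 also a STAT motif. Of 32851 such windows in the RefSeq table, 12.3% held the T-box core motif, 14% the RUNX motif, 6.75% the AP-1 motif and 7.02% the STAT motif, so a single match is a common feature. The matches are letters in a window and were not tested for binding.

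Each Treg-series library held between 9.73 and 20.2 M counts, and each CD8 library between 19.2 and 47.7 M. Levels are given as CPM, counts scaled to the library total. A count of 3, taken here as the floor, stood at 0.148 to 0.308 CPM in the Treg series and at 0.0629 to 0.156 CPM in the CD8 series. Floors cover counting error only, because the amplified reads carried no molecular identifiers. Il10 was at 78.8 to 155 CPM in the IL10 Tregs of the 3 sources, and its highest value in the Ebi3 or DN Tregs was 5.14 CPM. Ebi3 was at 4.92 to 15.7 CPM in the Ebi3 Tregs and reached 6.7 CPM in IL10 Tregs of the tumour, so these ranges overlap. Foxp3, the lineage factor of Tregs, was at 29.1 to 157 CPM in Tregs and at 15.9 to 29.7 CPM in Teff, so the lowest Treg and the highest Teff values also overlap. The CD8 libraries held 1430 to 4090 CPM of Cd8a and Cd8b1 together and at most 4.26 CPM of Cd4. The sum of 11 myeloid marker genes was at most 26.9 CPM in the Treg series apart from 1 node Ebi3 library (batch 3) at 201 CPM. The other node Ebi3 libraries were at 5.53 and 1.98 CPM, and the part of myeloid RNA in that group's values was not tested. Other marker sums moved with the groups. In the Treg series the 6 stromal and endothelial genes averaged 49.3 CPM in IL10, 109 CPM in Ebi3 and 205 CPM in DN Tregs of the Naive source, beside 260 CPM in Teff. In the node they averaged 45.6, 94.9 and 224 CPM, and in tumours 31, 61.5 and 90.5 CPM, in the same order of sorts. Col3a1 of that list was at 0 in 9 of the 10 groups. The 6 B cell genes averaged 46.7 CPM in Naive DN Tregs and 2.43 CPM in Teff, and 25.9 to 70.1 CPM over the Treg groups, with Pax5 at 0 in all 30 libraries. The 4 NK cell genes summed to at most 16.1 CPM. In yfp CD8 cells the B cell sum averaged 0.735 CPM in DP and 41.1 CPM in NEG, and the stromal and endothelial sum 18.4 CPM in DP and 76.2 CPM in NEG. The myeloid sum reached 104 CPM in the CD8 series, and in DP it averaged 12.5 CPM in DKO, 22.1 CPM in Ebi3L, 29.8 CPM in Il10 and 61.7 CPM in yfp cells. The NK cell sum there was 25.5 to 330 CPM. The part of such cells in the results that follow was not tested.

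The members differ widely in level. Per kilobase of exon, the carrier Selplg had a median of 323 CPM per kb over the Treg series and 348 CPM per kb over the CD8 series. On the same per-length scale B4galt1 stood at 44.0 and Cd44 at 35.9 CPM per kb in the Treg series, St3gal4 at 14.9, Fut7 at 14.6, Gcnt1 at 10.0 and St3gal6 at 0.673. In the CD8 series the medians per kb were 24 for Cd44, 17.1 for St3gal4, 13.3 for B4galt1, 11.5 for St3gal6, 4.2 for Fut7 and 1.46 for Gcnt1. Fut4 had a median of 0 in both series. The carrier is thus the most abundant member per length in both, and the enzymes follow at a distance. The series were made with different SMART-Seq kits (v4 for Tregs, v3 for CD8 cells), so levels are not tested between them.

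**Figure D1:**
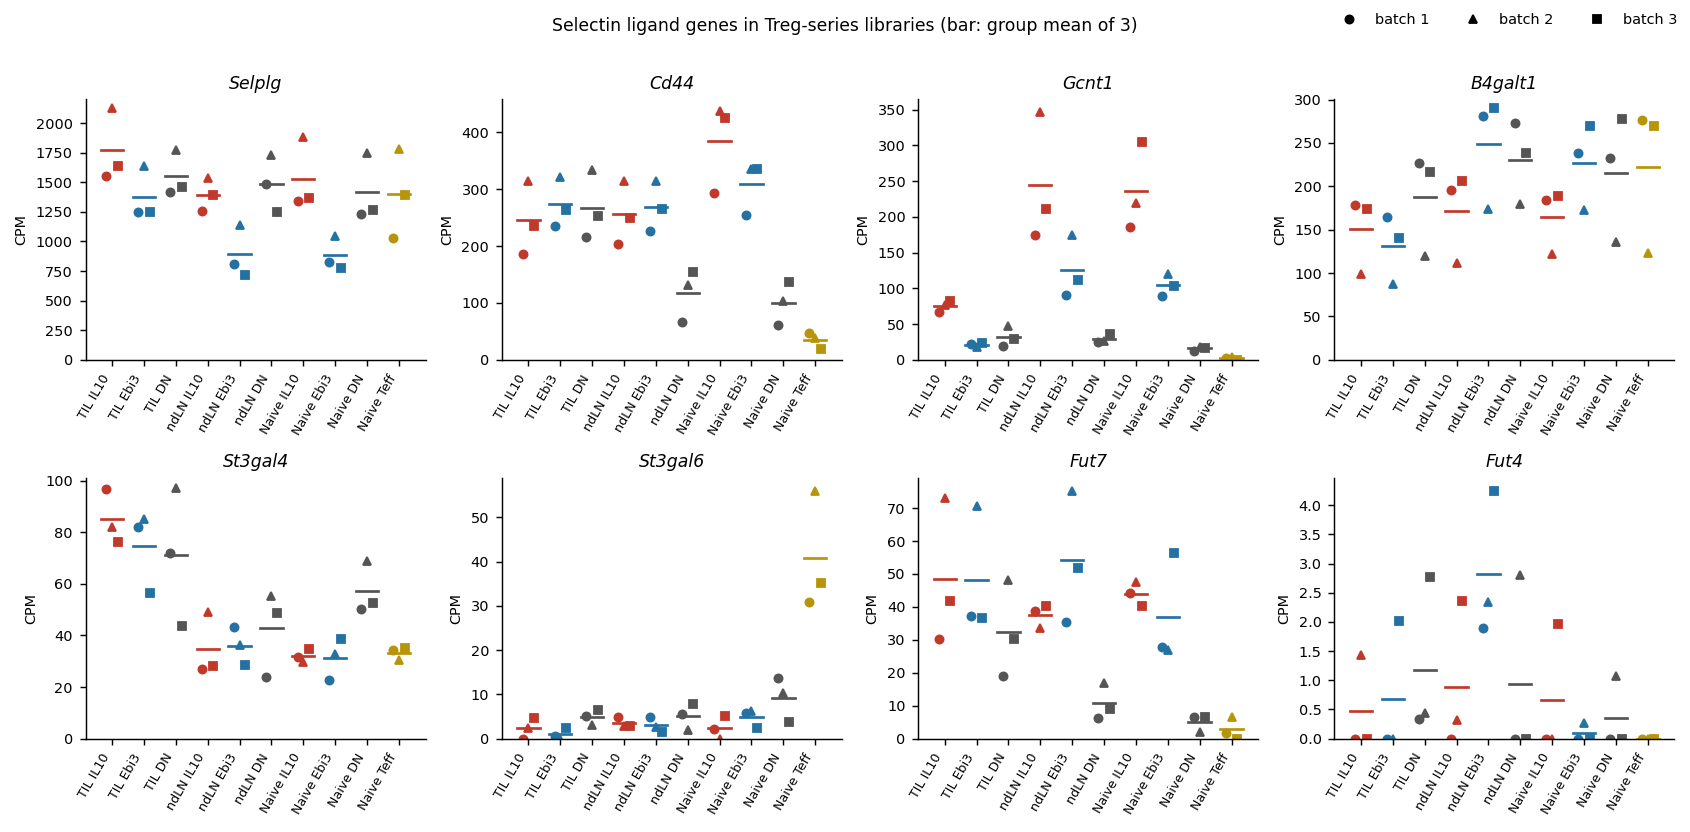
CPM of each gene (linear axis from 0) in the 30 libraries of the Treg series; points are libraries, shapes are batches and bars are group means of 3. Gcnt1 averaged 244 CPM in node IL10 Tregs and 21.3 CPM in tumour Ebi3 Tregs, and St3gal6 stood highest in Teff at 40.7 CPM.

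Among cells of the Naive source, DN Tregs were set against Teff. In edgeR's quasi-likelihood test with Benjamini-Hochberg adjustment, with an adjusted p under 0.05 counted as a call (a rise or a fall), 12.2% of the 12907 genes tested were called. The core 2 enzyme Gcnt1 and the carrier Cd44 rose in DN Tregs, and the other 6 members did not pass. Gcnt1 had 12.9, 18 and 17.1 CPM in DN Tregs, against 2.66, 3.39 and 0.0679 CPM in Teff. Every DN library lay above every Teff library, with a log2 fold change of 3.04 ± 0.47 (SE; edgeR adjusted p = 6.19e-05). Cd44, a hyaluronan receptor that marks antigen-experienced T cells, had 61.7, 104 and 136 CPM in DN Tregs, against 46.7, 39.1 and 19.1 CPM in Teff. Those groups did not overlap, and the log2 fold change was 1.47 ± 0.26 (edgeR adjusted p = 0.000208). Because these are bulk libraries, fewer cells that express a gene and less RNA per cell cannot be told apart, here and in each comparison that follows.

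The sialyltransferase St3gal6 had the opposite arrangement: from 3.75 to 13.6 CPM in the 3 DN Treg libraries, against 30.9, 56.0 and 35.2 CPM in Teff. The groups did not overlap, but the change of -2.11 ± 1.09 on the log2 scale did not pass (edgeR adjusted p = 0.23). St3gal4 had 50.4, 68.8 and 52.5 CPM in DN Tregs, against 34.4, 30.5 and 35 CPM in Teff. That difference of 0.79 ± 0.27 fell just short (edgeR adjusted p = 0.0538), and DESeq2 called it (adjusted p = 0.0358). Fut7, whose product is the main selectin-ligand fucosyltransferase of T cells, was low in both groups, with 6.64, 1.87 and 6.41 CPM in DN Tregs and 1.77, 6.68 and 0 CPM in Teff. The order turns in batch 2, and the change of 1.20 ± 0.69 had an edgeR adjusted p of 0.299, which became 0.0192 without batch 2 (log2 fold change 2.88). Selplg and B4galt1 differed by 0.06 ± 0.10 and 0.01 ± 0.11 on the log2 scale. Fut4 was at 0 in all 3 Teff libraries and had counts in 1 of 3 DN libraries, at 1.07 CPM.

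The sorts of Tregs were then compared within each source, which asks how Tregs that express IL-10 or Ebi3 differ from DN Tregs of the same place. The IL10 and Ebi3 comparisons share the DN libraries. In the Naive source, 5 of 8 members were called for IL10 against DN Tregs, where 17.8% of all genes were called, and 5 of 8 for Ebi3 against DN Tregs, where 12.8% were. Gcnt1, Fut7 and Cd44 rose in both, and St3gal4 fell in both. B4galt1 fell in IL10 Tregs and Selplg fell in Ebi3 Tregs.

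Gcnt1 had 186, 219 and 305 CPM in Naive IL10 Tregs and 89.2, 120 and 103 CPM in Naive Ebi3 Tregs, against the 12.9 to 18 CPM of Naive DN Tregs. No library of either sort came near the DN range. Its log2 fold change was 3.90 ± 0.41 for IL10 (edgeR adjusted p = 2.34e-07) and 2.62 ± 0.39 for Ebi3 (edgeR adjusted p = 7.34e-05). Fut7 had 44.3, 47.5 and 40.4 CPM in Naive IL10 Tregs and 27.9, 26.8 and 56.3 CPM in Naive Ebi3 Tregs, against at most 6.64 CPM in DN Tregs. The groups did not overlap, and the changes were 3.03 ± 0.65 (edgeR adjusted p = 0.00184) and 2.72 ± 0.65 (edgeR adjusted p = 0.00589). Cd44 had 294, 437 and 425 CPM in Naive IL10 Tregs and 255, 336 and 336 CPM in Naive Ebi3 Tregs. All 6 values lay above the DN range of 61.7 to 136 CPM, with changes of 1.95 ± 0.25 (edgeR adjusted p = 3.14e-06) and 1.57 ± 0.25 (edgeR adjusted p = 0.000119). The fold change of these genes was thus largest for Gcnt1 and smallest for Cd44 in IL10 Tregs.

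St3gal4 had 31.7, 29.6 and 34.9 CPM in Naive IL10 Tregs and 22.7, 32.9 and 38.5 CPM in Naive Ebi3 Tregs. Both sorts lay below the DN range of 50.4 to 68.8 CPM, by -0.81 ± 0.27 (edgeR adjusted p = 0.0358) and -0.94 ± 0.27 (edgeR adjusted p = 0.0196). B4galt1 had 184, 122 and 189 CPM in Naive IL10 Tregs, against 233, 136 and 278 CPM in DN Tregs. The ranges overlap because batch 2 was lowest in each group, but the IL10 library was the lower in 3 of 3 batches (-0.36 ± 0.11, edgeR adjusted p = 0.023). Selplg had 825, 1050 and 774 CPM in Naive Ebi3 Tregs, against 1230, 1750 and 1270 CPM in DN Tregs. Those groups did not overlap (-0.75 ± 0.10, edgeR adjusted p = 8.83e-06), while IL10 Tregs at 1340, 1880 and 1370 CPM differed from DN Tregs by 0.11 ± 0.10. St3gal6 averaged 2.40 ± 2.58 CPM in IL10, 4.82 ± 2.08 CPM in Ebi3 and 9.19 ± 5.0 CPM in DN Tregs (SD, n = 3), and neither difference passed. Fut4 was at 0 in 6 of these 9 libraries and reached 1.96 CPM.

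IL10 and Ebi3 Tregs of the Naive source also differed from each other, in 3 of 8 members where 5.48% of all genes were called. Selplg was higher in IL10 Tregs by 0.87 ± 0.10 (edgeR adjusted p = 1.27e-06) and Gcnt1 by 1.28 ± 0.37 (edgeR adjusted p = 0.042). B4galt1 was lower in IL10 Tregs by -0.39 ± 0.11 (edgeR adjusted p = 0.0315). Leaving out a batch ended several calls from the Naive source. The Gcnt1 and B4galt1 calls of IL10 against Ebi3 were lost without any one batch, with adjusted p of 0.101 to 0.277, as was St3gal4 for IL10 against DN (0.0609, 0.306 and 0.0821 without batch 1, 2 and 3). Without batch 1 the adjusted p of Fut7 was 0.0534 for IL10 and 0.074 for Ebi3, and that of B4galt1 for IL10 was 0.108, and 0.369 without batch 3. St3gal4 for Ebi3 against DN had 0.101 without batch 1 and 0.189 without batch 2. Calls on Gcnt1, Cd44 and Selplg against DN held in all 3 of these fits.

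In the non-draining node, 4 of 8 members were called for IL10 against DN Tregs, where 16.2% of all genes were, and 4 of 8 for Ebi3 against DN Tregs, where 13% were. Gcnt1, Fut7 and Cd44 again rose in both, B4galt1 fell in IL10 Tregs and Selplg fell in Ebi3 Tregs. Gcnt1 had 174, 347 and 211 CPM in node IL10 Tregs and 90.6, 174 and 111 CPM in node Ebi3 Tregs, against 24.7, 25.9 and 36.1 CPM in node DN Tregs. Neither sort overlapped DN Tregs, and the changes were 3.03 ± 0.40 (edgeR adjusted p = 5.86e-06) and 2.01 ± 0.38 (edgeR adjusted p = 0.000823). Fut7 had 38.7, 33.6 and 40.2 CPM in node IL10 Tregs and 35.3, 75.3 and 51.8 CPM in node Ebi3 Tregs, against 6.15, 16.8 and 9.02 CPM in DN Tregs. Again the ranges were apart, with changes of 1.95 ± 0.62 (edgeR adjusted p = 0.0337) and 2.32 ± 0.62 (edgeR adjusted p = 0.0148). The library with the high myeloid sum had 51.8 CPM of Fut7, between the other 2 of its group. It had 4.25 CPM of Fut4, the highest of its group. The 4 node Ebi3 calls against DN held without batch 3, and the part of myeloid RNA in these values was not tested.

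Cd44 had 204, 315 and 250 CPM in node IL10 Tregs and 227, 315 and 265 CPM in node Ebi3 Tregs, against 66.0, 132 and 154 CPM in DN Tregs. Both sorts lay wholly above DN Tregs (1.16 ± 0.25, edgeR adjusted p = 0.00169, and 1.18 ± 0.25, edgeR adjusted p = 0.00193). Selplg had 811, 1140 and 719 CPM in node Ebi3 Tregs, against 1490, 1730 and 1250 CPM in DN Tregs, and fell without overlap (-0.81 ± 0.10, edgeR adjusted p = 3.24e-06). B4galt1 had 196, 112 and 206 CPM in node IL10 Tregs, against 273, 180 and 239 CPM in DN Tregs. It was the lower in 3 of 3 batches, by -0.46 ± 0.11 (edgeR adjusted p = 0.00444). Between IL10 and Ebi3 Tregs of the node, where 5.07% of genes were called, Selplg was higher in IL10 Tregs by 0.73 ± 0.10 (edgeR adjusted p = 1.76e-05) and B4galt1 lower by -0.49 ± 0.11 (edgeR adjusted p = 0.00647). The Gcnt1 difference of 1.02 ± 0.37 there did not pass (edgeR adjusted p = 0.128). Without batch 2 the calls on Cd44 were lost (adjusted p = 0.106 for IL10 and 0.101 for Ebi3), and without batch 1 those on Fut7 (0.311 and 0.173). The Fut7 call for IL10 was also lost without batch 3 (0.0767). B4galt1 for IL10 against DN was lost without batch 1 (0.0743) or batch 2 (0.0905), and against Ebi3 without any one batch (0.077 to 0.129).

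**Figure D2:**
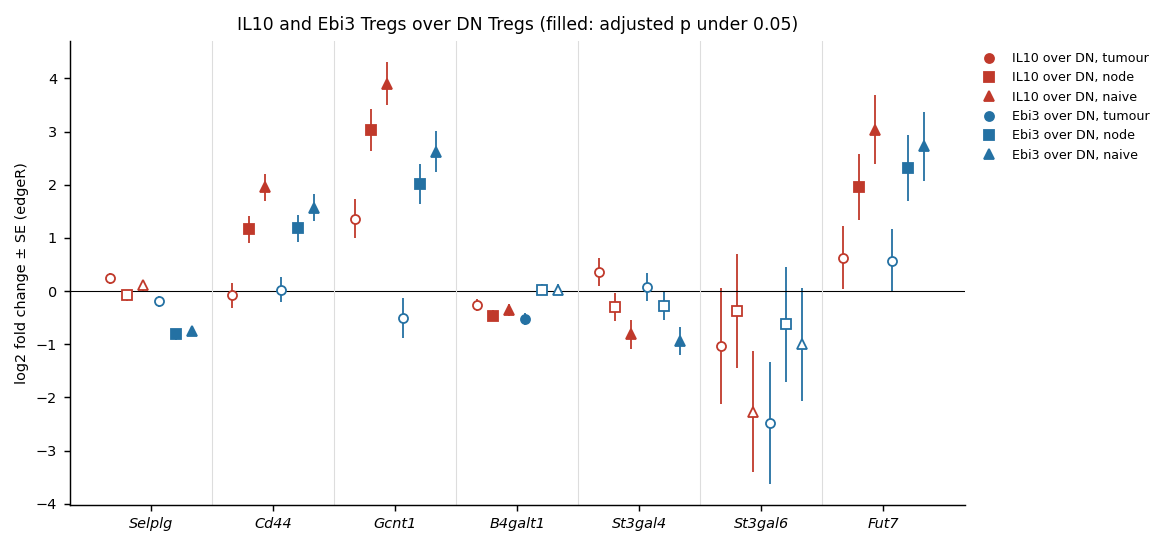
Log2 fold change with SE (vertical axis) of IL10 over DN and Ebi3 over DN Tregs in tumour, node and the Naive source, for 7 genes; filled symbols passed an adjusted p of 0.05 and Fut4, near the floor, is left out. Gcnt1 stood at 1.36, 3.03 and 3.90 in IL10 Tregs and at -0.51, 2.01 and 2.62 in Ebi3 Tregs in tumour, node and Naive source.

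In tumours no member passed for IL10 against DN Tregs, where 0.837% of all genes were called, and edgeR gave 3 of 8 members an unadjusted p under 0.05. Gcnt1 had 67.4, 76.5 and 82.9 CPM in tumour IL10 Tregs and 22.7, 17.7 and 23.3 CPM in tumour Ebi3 Tregs, against 19.1, 47.8 and 29.2 CPM in tumour DN Tregs. The IL10 libraries lay above both other sorts, yet the change against DN of 1.36 ± 0.37 did not pass (edgeR adjusted p = 0.108). Against Ebi3 Tregs, where 2.84% of genes were called, Gcnt1 was higher in IL10 Tregs by 1.87 ± 0.38 (edgeR adjusted p = 0.00737) and Selplg by 0.43 ± 0.10 (edgeR adjusted p = 0.0147). B4galt1 was the 1 member called for Ebi3 against DN Tregs, where 0.713% of genes were. It had 165, 87.4 and 140 CPM in tumour Ebi3 Tregs, against 227, 120 and 216 CPM in DN Tregs, and was lower in 3 of 3 batches (-0.53 ± 0.11, edgeR adjusted p = 0.0159). Cd44 stood at 186 to 315 CPM in IL10, 236 to 321 CPM in Ebi3 and 216 to 334 CPM in DN Tregs, and these ranges overlap almost fully. Fut7 averaged 48.5 ± 22.2, 48.2 ± 19.5 and 32.5 ± 14.6 CPM in tumour IL10, Ebi3 and DN Tregs (SD, n = 3), with no call. The B4galt1 and Selplg calls were lost without any one batch (adjusted p 0.0812 to 0.614 and 0.0526 to 0.385), and that on Gcnt1 without batch 1 (0.121) or batch 2 (0.0868).

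The same libraries give the change between tumour and node within each sort, which asks how Tregs in the tumour differ from those of a node that does not drain it. St3gal4 rose in tumour in all 3 sorts. Beyond that gene, DN Tregs gained Fut7 and Cd44, and IL10 and Ebi3 Tregs lost Gcnt1 and gained Selplg. B4galt1 fell in Ebi3 Tregs. The calls number 3 of 8 in IL10, 4 of 8 in Ebi3 and 3 of 8 in DN Tregs, where 9.32%, 10.3% and 23.4% of all genes were called.

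St3gal4 had 96.9, 82.1 and 76.2 CPM in tumour IL10 Tregs, against 26.8, 49.2 and 28.2 CPM in node IL10 Tregs. In Ebi3 Tregs it had 82.1, 85.1 and 56.3 CPM in tumours, against 43.3, 36.4 and 28.5 CPM in nodes. Tumour libraries lay above all node libraries in both, by 1.5 ± 0.27 (edgeR adjusted p = 0.000338) and 1.19 ± 0.27 (edgeR adjusted p = 0.00293). In DN Tregs, with 72.1, 97.2 and 43.8 CPM in tumours against 24, 55.4 and 48.8 CPM in nodes, the ranges overlap and the tumour library was higher in 2 of 3 batches (0.84 ± 0.27, edgeR adjusted p = 0.0226). Of the transcript that overlaps St3gal4, 4930581F22Rik, tumours held 10.3 ± 0.51 CPM and nodes 4.66 ± 1.13 CPM in IL10 Tregs (SD, n = 3). In Ebi3 Tregs tumours held 6.43 ± 1.25 CPM of it and nodes 4.24 ± 0.253 CPM, and its part in the St3gal4 values was not tested.

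Gcnt1 fell in tumour IL10 Tregs, whose 67.4 to 82.9 CPM lay below the 174 to 347 CPM of node IL10 Tregs (-1.47 ± 0.37, edgeR adjusted p = 0.0115). In Ebi3 Tregs it fell to 17.7 to 23.3 CPM in tumours, against 90.6 to 174 CPM in nodes (-2.33 ± 0.39, edgeR adjusted p = 0.000154). In DN Tregs it differed by 0.20 ± 0.37. The difference between the changes passed for Ebi3 against DN Tregs (-2.53 ± 0.54, edgeR adjusted p = 0.0138) and not for IL10 against DN Tregs (-1.67 ± 0.53, edgeR adjusted p = 0.0747, which became 0.0234 without batch 3). For IL10 against Ebi3 Tregs it was 0.85 ± 0.52 (edgeR adjusted p = 0.955). Fut7 rose in tumour DN Tregs, with 19.1, 48.1 and 30.3 CPM in tumours, against 6.15, 16.8 and 9.02 CPM in nodes (1.75 ± 0.62, edgeR adjusted p = 0.0426). Those ranges do not overlap, and in IL10 and Ebi3 Tregs Fut7 differed by 0.42 ± 0.59 and -0.01 ± 0.59.

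Cd44 rose in tumour DN Tregs to 216, 334 and 253 CPM, against 66.0, 132 and 154 CPM in nodes (1.34 ± 0.25, edgeR adjusted p = 0.000261). Its change differed between IL10 and DN Tregs by -1.24 ± 0.35 (edgeR adjusted p = 0.039), and between Ebi3 and DN Tregs by -1.15 ± 0.35 (edgeR adjusted p = 0.104). DESeq2 called that second difference (adjusted p = 0.0261), as did edgeR without batch 3 (adjusted p = 0.034). Selplg had 1550, 2130 and 1640 CPM in tumour IL10 Tregs, against 1260, 1540 and 1390 CPM in node IL10 Tregs. In Ebi3 Tregs it had 1250, 1640 and 1250 CPM in tumours, against 811, 1140 and 719 CPM in nodes. Tumour libraries stood above node libraries in both sorts, by 0.50 ± 0.10 (edgeR adjusted p = 0.00095) and 0.80 ± 0.10 (edgeR adjusted p = 1.3e-06). The change in Ebi3 exceeded that in DN Tregs by 0.62 ± 0.14 (edgeR adjusted p = 0.0168). B4galt1 fell in tumour Ebi3 Tregs, to 165, 87.4 and 140 CPM, against 281, 174 and 290 CPM in nodes (-0.78 ± 0.11, edgeR adjusted p = 1.05e-05). Its change in IL10 Tregs was -0.02 ± 0.11 in edgeR's fit, and IL10 and Ebi3 Tregs differed in this change by 0.76 ± 0.16 (edgeR adjusted p = 0.0312). In CPM the tumour library was the lower in 3 of 3 batches in IL10 and in DN Tregs too, with overlapping ranges. The DN change of -0.22 did not pass (edgeR adjusted p = 0.164), but limma on deposited log2 values called it (-0.33, adjusted p = 0.0287). For Ebi3 against DN Tregs the changes differed by -0.56 (edgeR adjusted p = 0.0653), called by DESeq2 (adjusted p = 0.0125) and limma (adjusted p = 0.0487). Of 8 members, 1 was called for IL10 against DN Tregs in this difference of changes, where 4.49% of all genes were, 2 for Ebi3 against DN Tregs (1.61%) and 1 for IL10 against Ebi3 Tregs (0.178%).

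Leaving out a batch ended several of these calls. Fut7 in DN Tregs was lost without any one batch (adjusted p 0.0585 to 0.229), and St3gal4 in DN Tregs without batch 1 (0.246) or batch 2 (0.149). Gcnt1 in IL10 Tregs was lost without batch 1 (0.104) or batch 2 (0.168), and St3gal4 in Ebi3 Tregs without batch 2 (0.0704). The differences between sorts on Selplg and B4galt1 were lost without any one batch (0.112 to 0.192 and 0.236 to 0.79). Those on Cd44 and Gcnt1 were lost without batch 1 (0.109 and 0.105) or batch 2 (0.347 and 0.371).

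**Figure D3:**
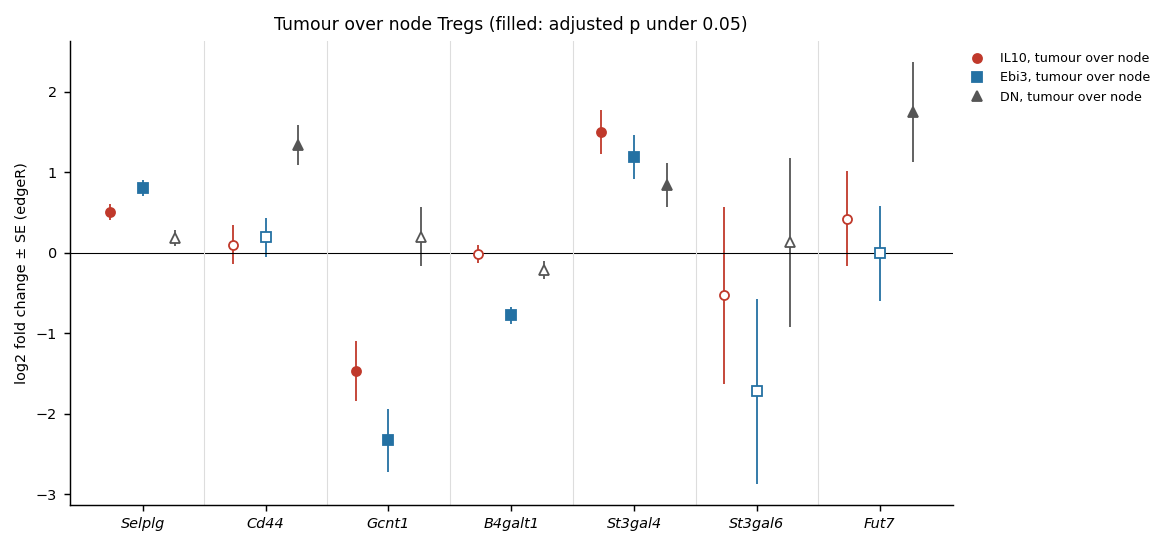
Log2 fold change with SE (vertical axis) of tumour over node Tregs in IL10, Ebi3 and DN sorts, for 7 genes; filled symbols passed an adjusted p of 0.05. St3gal4 is filled in all 3 sorts at 1.5, 1.19 and 0.84, and Gcnt1 is filled at -1.47 in IL10 and -2.33 in Ebi3 Tregs.

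Between node and Naive source, no member was called in any sort. Of 24 tests, edgeR gave 3 an unadjusted p under 0.05, DESeq2 called 0 and limma called 0. In these comparisons 0.0542% of all genes were called in IL10, 0.00775% in Ebi3 and 0.0852% in DN Tregs. Gcnt1 in DN Tregs had 24.7 to 36.1 CPM in nodes, against 12.9 to 18 CPM in the Naive source (0.87 ± 0.38, edgeR adjusted p = 0.631). Cd44 in IL10 Tregs had 204 to 315 CPM in nodes, against 294 to 437 CPM in the Naive source (-0.59 ± 0.24, edgeR adjusted p = 0.798). Fut4 in Ebi3 Tregs had 1.90, 2.34 and 4.25 CPM in nodes and 0, 0.27 and 0 CPM in the Naive source, and did not pass (edgeR adjusted p = 1). The value of 4.25 CPM belongs to the library with the high myeloid sum.

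Ordered by group mean over the Treg series, Gcnt1 ran from 244 CPM in node IL10 and 236 CPM in Naive IL10 Tregs, whose ranges overlap, through node and Naive Ebi3 Tregs to 2.04 CPM in Teff. Of 9 neighbouring pairs in that order 4 overlap in range. The Fut7 order placed node Ebi3 Tregs first at 54.1 CPM and Teff last at 2.82 CPM, and 7 of 9 neighbouring pairs overlap. St3gal4 led in the 3 tumour groups, and all 9 of its neighbouring pairs overlap, as do those of B4galt1 and Fut4. St3gal6 set Teff at 40.7 ± 13.4 CPM apart from every Treg group, of which the highest was Naive DN at 9.19 ± 5.0 CPM (SD, n = 3). Batch moved some members in every group: B4galt1 was lowest and Selplg highest in batch 2 in 10 of 10 groups, which is why batch is a term of the fit.

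Other genes of selectin ligand synthesis, a list of 73 measured genes of which 61 were tested, moved in both directions. In the Naive source, 11 were higher and 9 lower in IL10 against DN Tregs, where 17.8% of all genes were called. For Ebi3 against DN Tregs 7 were higher and 8 lower, where 12.8% of all genes were called. The list's median log2 fold changes were 0.02 and 0.16, against 0.01 over all genes in both. Tbx21, which encodes T-bet, a factor known to drive selectin ligand genes in mouse T cells, rose in Naive IL10 Tregs to 21.2 to 26.1 CPM, against 0.506 to 1.62 CPM in DN Tregs (4.31 ± 0.48, edgeR adjusted p = 2.12e-07). Chst2, a sulfotransferase that acts on selectin ligands, rose in Naive Ebi3 Tregs (2.40 ± 0.39, edgeR adjusted p = 0.000125), and the tyrosine sulfotransferase gene Tpst2 rose in Naive IL10 Tregs (0.89 ± 0.13, edgeR adjusted p = 9.01e-06).

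In the node 10 of the 61 were higher and 11 lower in IL10 against DN Tregs, and 8 higher and 5 lower in Ebi3 against DN Tregs. The medians were -0.08 and -0.07 against 0.01 and 0.02 over all genes, of which 16.2% and 13% were called. In the tumour 1 was higher and 1 lower in IL10 against DN Tregs, where 0.837% of all genes were called. For Ebi3 against DN Tregs 0 were higher and 1 lower, where 0.713% of all genes were called. The IL10 pair were Ezr, a linker of membrane and cytoskeleton, up by 0.56 ± 0.12 (edgeR adjusted p = 0.0246), and St6gal1, down by -1.09 ± 0.18 (edgeR adjusted p = 0.00145). Between tumour and node, 8 were higher and 2 lower in IL10, 6 higher and 7 lower in Ebi3, and 13 higher and 8 lower in DN Tregs. The medians were 0.08, 0.07 and 0.20 against -0.02, -0.04 and 0.01 over all genes, of which 9.32%, 10.3% and 23.4% were called. St6gal1, which adds sialic acid in a different linkage, fell in all 3, by -2.24 ± 0.19 in IL10, -2.27 ± 0.19 in Ebi3 and -1.78 ± 0.18 in DN Tregs (largest edgeR adjusted p = 3.53e-08). It averaged 21.2 ± 7.05 CPM in tumour IL10 Tregs and 111 ± 13.5 CPM in node IL10 Tregs (SD, n = 3). Tbx21 rose in tumour IL10 Tregs by 1.87 ± 0.41 (edgeR adjusted p = 0.00275), in Ebi3 by 2.91 ± 0.43 (edgeR adjusted p = 1.74e-05) and in DN Tregs by 2.99 ± 0.43 (edgeR adjusted p = 8.47e-06). For DN Tregs against Teff, 9 were higher and 5 lower, with a median of 0 against 0.03 over all genes, of which 12.2% were called. Chst2 was the first by adjusted p (3.98 ± 0.51, edgeR adjusted p = 2.39e-06).

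Over the 10 group means of the Treg series, on the log2(CPM + 1) scale, the genes whose levels ran most like those of Gcnt1 were Ahr (Pearson r = 0.984), Prune2 (0.981) and Itgae (0.979). For Fut7 they were Gsr (0.995), Wbp5 (0.984) and Commd10 (0.982), and for Cd44 they were Lsr (0.991), Naip2 (0.99) and Slc22a15 (0.988). The closest to St3gal4 was Mxd1 (0.972), to St3gal6 Zfp236 (0.966), to Selplg Irgm2 (0.954) and to B4galt1 Tyw3 (0.949). With 10 points and 9513 genes compared, high values are common, and the points share batches.

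The CD8 populations were compared over all 60 libraries, with the 12 sources (genotype and library set) as a block, and again in the 15 yfp libraries alone. The order NDLN, NEG, INT, SP and DP follows rising PD-1 and TIM-3, and the first group is a node. Across it the members split. Gcnt1, Fut7 and Fut4 were highest in DP, Selplg, B4galt1 and St3gal6 were lowest there, and Cd44 peaked in INT and SP.

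**Figure D4:**
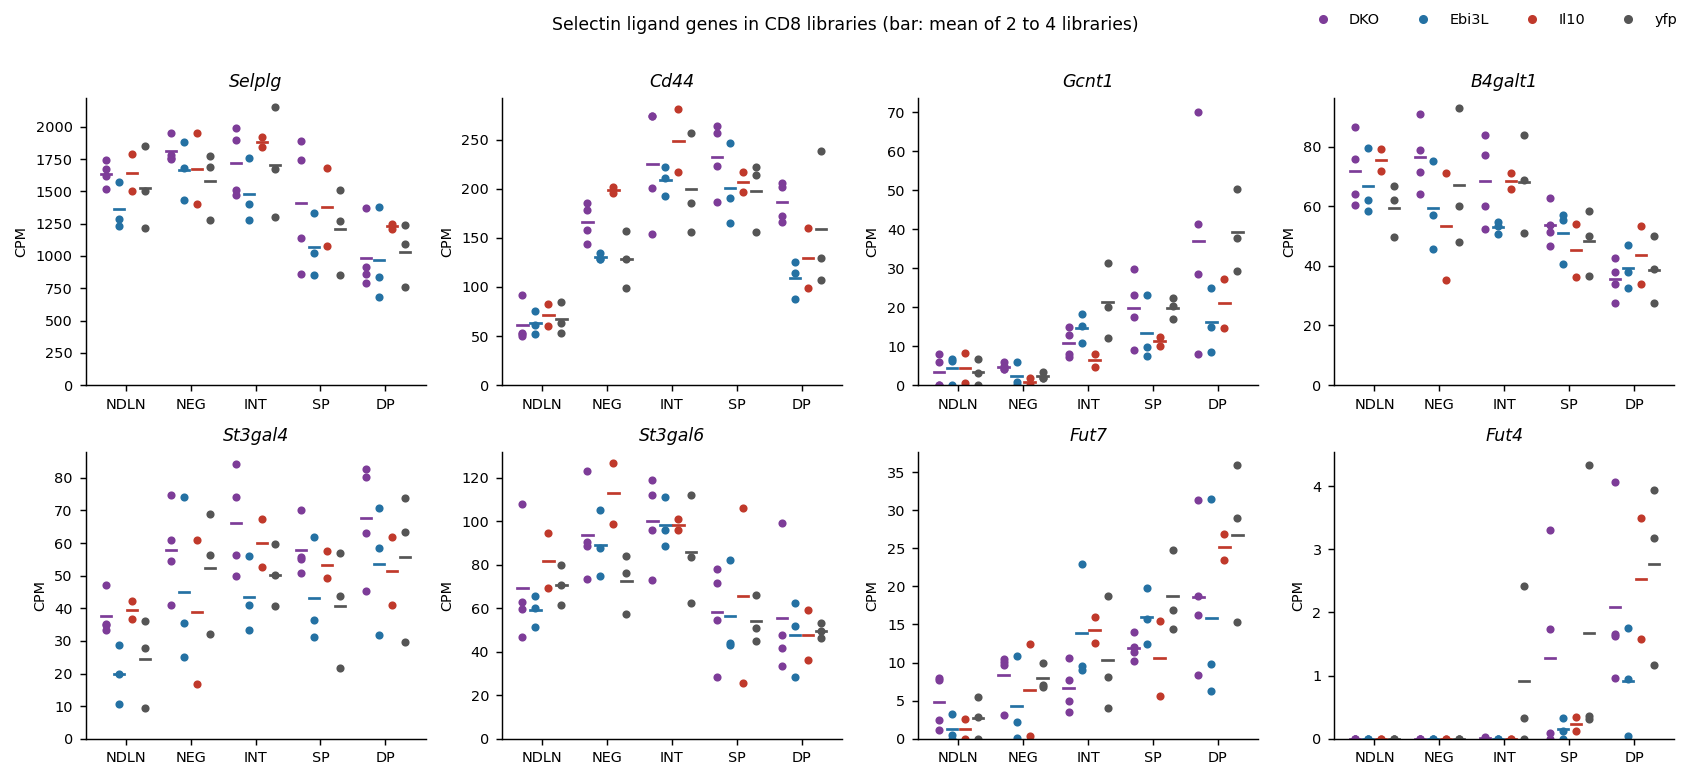
CPM of each gene (linear axis from 0) in the 60 CD8 libraries by population, in the order of rising PD-1 and TIM-3, with genotypes side by side; bars are means of 2 to 4 libraries. Gcnt1 had a median of 27.9 CPM in DP and 2.61 CPM in NEG over the 12 libraries of each, and Selplg one of 1000 CPM in DP and 1750 CPM in NEG.

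Gcnt1 ranged from 0 to 8.26 CPM in NDLN (median 4.60), 0 to 6.0 in NEG (2.61), 4.76 to 31.3 in INT (12.5), 7.50 to 29.8 in SP (17.1) and 7.90 to 70.1 in DP (27.9). Every DP library lay above every NEG library, and INT and NEG ranges overlap only slightly. The step that passed was INT over NEG (2.22 ± 0.66, edgeR adjusted p = 0.0152), higher in 12 of 12 sources. DP against NEG gave 3.42 ± 0.69 (edgeR adjusted p = 2.73e-05), also 12 of 12, and DP against SP, at 0.90 ± 0.62, did not pass. Fut7 had medians of 2.49 CPM in NDLN, 8.36 in NEG, 9.27 in INT, 14.2 in SP and 21.0 in DP, and each range overlaps the next. DP exceeded NEG by 1.74 ± 0.57 (edgeR adjusted p = 0.00718), in 10 of 12 sources. NEG exceeded NDLN by 1.58 ± 0.58, in 10 of 12 sources, at an edgeR adjusted p of 0.04999 that passed in 4 of 12 fits with a library source left out (up to 0.12).

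Fut4, a second fucosyltransferase, was at 0 in all 12 NDLN and all 12 NEG libraries. It had more than 3 counts in 2 of 12 INT, 8 of 12 SP and 11 of 12 DP libraries, with up to 2.42 CPM in INT, 4.33 in SP and 4.06 in DP. Over the pooled counts of 12 libraries each, DP stood at 1.91 CPM, at least 197-fold higher than NEG taken at 3 counts over the group (edgeR adjusted p = 3.21e-07), in 12 of 12 sources. With NDLN and NEG at 0, Fut4 passed the filter on low counts through the other populations alone. That p-value is therefore no support apart from the counts themselves. SP exceeded INT by 3.80 ± 1.05 (edgeR adjusted p = 0.00602). Fut4 passed the filter mainly through SP and DP, so this p-value too is no support apart from the counts. INT over NEG was called (edgeR adjusted p = 0.0475), but 9 of 12 INT libraries were at 0 and most of the counts were in 1 yfp library at 2.42 CPM. That call held in 1 of 12 fits with a source left out, and the adjusted p reached 0.177.

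The carrier Selplg ranged from 1220 to 1850 CPM in NDLN (median 1550), 1280 to 1950 in NEG (1750), 1280 to 2150 in INT (1710), 849 to 1890 in SP (1210) and 684 to 1380 in DP (1000). It fell in SP against INT (-0.44 ± 0.08, edgeR adjusted p = 2.65e-05) and in DP against NEG (-0.72 ± 0.08, edgeR adjusted p = 6.3e-11), lower in 12 of 12 sources each time. DP against SP gave -0.21 ± 0.08 (edgeR adjusted p = 0.0475), a call kept in 3 of 12 fits with a source left out (up to 0.241). B4galt1 had medians of 65.3 CPM in NDLN, 67.7 in NEG, 62.8 in INT, 52.6 in SP and 38.0 in DP. It fell in SP against INT (-0.38 ± 0.11, edgeR adjusted p = 0.00643) and in DP against NEG (-0.74 ± 0.11, edgeR adjusted p = 1.17e-07). For DP against SP, -0.30 ± 0.11 (edgeR adjusted p = 0.0392), 12 of 12 sources were lower, and 6 of 12 fits with a source left out kept the call (up to 0.0971).

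St3gal6 ranged from 47.0 to 108 CPM in NDLN (median 64.3), 57.3 to 127 in NEG (88.1), 62.2 to 119 in INT (95.8), 25.5 to 106 in SP (52.9) and 28.4 to 99.4 in DP (48.7). The ranges overlap, and within sources DP was lower than NEG in 12 of 12 (-0.84 ± 0.16, edgeR adjusted p = 1.3e-05) and SP lower than INT in 11 of 12 (-0.77 ± 0.16, edgeR adjusted p = 0.000197). Dcbld2, the gene that overlaps it, averaged 5.77 ± 4.05 CPM in DP and 11.5 ± 9.73 CPM in NEG (SD, n = 12). The other sialyltransferase, St3gal4, had medians of 34.1 CPM in NDLN, 55.4 in NEG, 54.3 in INT, 52.9 in SP and 62.4 in DP. Its step lay between NEG and NDLN (0.84 ± 0.16, edgeR adjusted p = 4.76e-05), in 11 of 12 sources, and DP against NEG gave 0.27 ± 0.15 with no call. Cd44 had medians of 61.0 CPM in NDLN, 150 in NEG, 214 in INT, 216 in SP and 145 in DP. Every NEG library lay above every NDLN library (1.31 ± 0.12, edgeR adjusted p = 1.94e-12). Cd44 rose again in INT against NEG (0.47 ± 0.12, edgeR adjusted p = 0.00358) and fell in DP against SP (-0.44 ± 0.12, edgeR adjusted p = 0.00343), in 11 of 12 sources each.

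Over all 60 libraries the calls were 3 of 8 members for NEG against NDLN, where 18.4% of all genes were called, 3 of 8 for INT against NEG (15.6%), 4 of 8 for SP against INT (31.9%), 3 of 8 for DP against SP (25.9%) and 6 of 8 for DP against NEG (63.1%). For that last comparison the members' share is near that of all genes. Fut4, whose calls carry the limit of the filter given above, is among those for INT against NEG, SP against INT and DP against NEG. In the yfp libraries alone, n = 3 a population, 7 of 40 tests passed. NEG against NDLN called St3gal4 (1.28 ± 0.25, edgeR adjusted p = 0.017) and Cd44 (1.05 ± 0.24, edgeR adjusted p = 0.0382), where 1.56% of genes were called, and SP against INT called Selplg (-0.53 ± 0.13, edgeR adjusted p = 0.0277), where 4.89% were. DP against NEG, where 33.2% of genes were called, called Gcnt1 (4.17 ± 1.02, edgeR adjusted p = 0.00864), Fut4 (edgeR adjusted p = 0.0126), B4galt1 (-0.80 ± 0.25, edgeR adjusted p = 0.0251) and Selplg (-0.61 ± 0.13, edgeR adjusted p = 0.00218).

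In yfp cells Gcnt1 had 37.8, 50.3 and 29.3 CPM in DP, against 1.77, 1.92 and 3.29 CPM in NEG, without overlap. Fut4 had 3.94, 3.18 and 1.17 CPM in DP and 0 in all 3 NEG libraries, at least 75.1-fold higher than NEG taken at 3 counts over the group. Here too Fut4 passed the filter on low counts only through populations other than NDLN and NEG. No member was called by edgeR for INT against NEG, where 0.938% of genes were and 3 of 8 members had an unadjusted p under 0.05, or for DP against SP, where 1.21% were and 1 of 8 had. For INT against NEG Gcnt1 gave 3.22 ± 0.98 (edgeR adjusted p = 0.169), which DESeq2 called (adjusted p = 0.00478). Library sets pair the yfp samples, and with the set as a block St3gal6 for SP against INT also passed (-0.68, edgeR adjusted p = 0.0497), while without it the change was -0.69 ± 0.22 (edgeR adjusted p = 0.0897). Leaving out 1 of the 3 yfp replicates ended the calls on Gcnt1 (0.13 without replicate 2), Fut4 (0.113 without replicate 1) and B4galt1 (0.0739 without replicate 2 and 0.163 without replicate 3). St3gal4, Cd44 and Selplg for SP against INT were lost without replicate 1 (0.138, 0.33 and 0.136) or replicate 3 (0.218, 0.475 and 0.23).

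**Figure D5:**
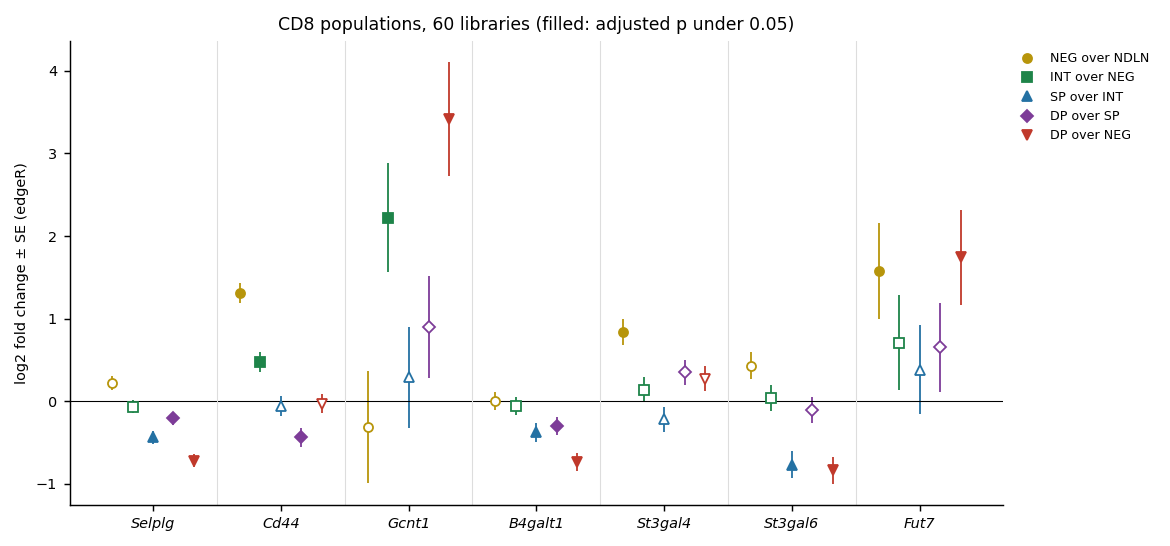
Log2 fold change with SE (vertical axis) between CD8 populations over 60 libraries, for 7 genes; filled symbols passed an adjusted p of 0.05 and Fut4 is left out. DP over NEG is 3.42 for Gcnt1 and 1.74 for Fut7, and -0.72, -0.74 and -0.84 for Selplg, B4galt1 and St3gal6.

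The genotypes were set against yfp within each population, which asks whether loss of IL-10, IL-35 or both in Tregs leaves a mark on these genes in CD8 cells. No library set holds both Il10 and yfp libraries, and most DKO libraries came from sets without yfp. Batch 2 held no yfp library. A difference between genotypes can therefore not be fully told apart from one between library sets. No member was called in any of the 15 comparisons. In 37 tests of DKO against yfp, edgeR gave 2 an unadjusted p under 0.05, in 37 of Ebi3L 0 and in 37 of Il10 2, and DESeq2 and limma called 0 in each. Over all genes the share called was 0.00775% in INT for each genotype, 0.00811% in NDLN for Il10 and 0% in the others. The lowest unadjusted p belonged to Gcnt1 in INT for Il10, with Gcnt1 at 8.01 and 4.76 CPM in Il10, 15, 7.12, 8.08 and 12.8 CPM in DKO, and 12.2, 31.3 and 20.1 CPM in yfp. Both Il10 libraries lay below all yfp libraries (-1.73 ± 0.68, unadjusted p = 0.0237 by edgeR) and the DKO range overlaps that of yfp (-1.02 ± 0.47, unadjusted p = 0.0481 by edgeR). Fut7 in DP had 8.40, 18.7, 31.3 and 16.2 CPM in DKO, against 29.0, 35.9 and 15.3 CPM in yfp (-1.0 ± 0.44, unadjusted p = 0.0423 by edgeR). Cd44 in NEG had 196 and 202 CPM in Il10, against 157, 98.5 and 129 CPM in yfp (0.57 ± 0.23, unadjusted p = 0.0289 by edgeR). Without Il10 replicate 2, which leaves 1 Il10 library of 16.9 CPM assumed to vary like the others, St3gal4 in NEG was called against yfp (-2.06, edgeR adjusted p = 0.0464), where both Il10 libraries gave -0.62 ± 0.45 (edgeR adjusted p = 0.991).

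The precision of these tests differs between members. For Selplg the 15 differences ran from -0.24 to 0.21 with SE of 0.09 to 0.29, and for B4galt1 from -0.28 to 0.21 with SE of 0.21 to 0.34. For Gcnt1 they ran from -1.73 to 2.06 with SE of 0.44 to 2.63 and for Fut7 from -3.33 to 1.25 with SE of 0.40 to 5.75. The change from NEG to DP did not differ from yfp in DKO, Ebi3L or Il10 for any member by edgeR, with 1 of 24 tests at an unadjusted p under 0.05 and 0 calls by DESeq2 and by limma. That test was Cd44 in Il10 (-0.94 ± 0.38, unadjusted p = 0.0281 by edgeR, adjusted 0.926). In this fit 0% of all genes were called.

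Among the other pathway genes, DP against NEG over 60 libraries had 21 of 61 higher and 20 lower, with a median of -0.04 against 0.01 over all genes. Of all genes 63.1% were called there, and the list's share is near that. Galnt6 and Galnt10, which start O-glycans, fell: Galnt10 had a median of 3.19 CPM in DP and 56.7 CPM in NEG (-3.71 ± 0.32, edgeR adjusted p = 3.03e-14), and Galnt6 one of 36.6 CPM in DP and 127 CPM in NEG (-1.83 ± 0.14, edgeR adjusted p = 3.26e-16). Lamp1, a lysosomal protein that can carry such glycans, fell in DP against SP (-1.26 ± 0.10, edgeR adjusted p = 2.27e-14). For NEG against NDLN 13 were higher and 6 lower (median 0.01 against 0), where 18.4% of all genes were called. The first by adjusted p were Tbx21 (2.33 ± 0.17, edgeR adjusted p = 1.29e-15) and Il12rb2, a receptor chain for IL-12 (3.12 ± 0.32, edgeR adjusted p = 8.15e-11). INT against NEG had 7 higher and 3 lower, SP against INT 14 higher and 10 lower, and DP against SP 5 higher and 13 lower. In that order 15.6%, 31.9% and 25.9% of all genes were called. Chst2 rose in INT against NEG (2.97 ± 0.60, edgeR adjusted p = 0.00028), and Tpst2 fell in SP against INT (-0.76 ± 0.12, edgeR adjusted p = 1.25e-06).

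Over the 20 CD8 group means, the genes most like Gcnt1 were Lrmp (Pearson r = 0.936), Cd200r1 (0.931) and Ppp1ca (0.926). Those most like Fut7 were Fam69b (0.945), Serpina3g (0.935) and Lat2 (0.929), and those most like Selplg were Gbp9 (0.969), Gimap3 (0.961) and Irf1 (0.958). Cldn25 (0.963) came first for Cd44, Mbd5 (0.938) for B4galt1, Pmm2 (0.922) for St3gal6 and Gem (0.863) for St3gal4. The 20 points share library sets across populations.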

How the data were processed

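RNA from sorted cells was amplified with SMART-Seq kits and made into libraries with Nextera XT, per the labels' protocols. The submitters' processing notes name STAR, featureCounts of Subread, mm10 and limma, with no versions; annotation and strandedness are not given in the sources used. The authors deposited raw read counts for 23420 genes in 90 libraries, and log2 expression values for a smaller set of genes that hold 7 of the 8 members (not Fut4). Every per-sample column was matched to a sample by name, and 0 columns were left without one. From the values, the log2 tables look adjusted for batch. Levels in CPM were computed from the counts.

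Tests used edgeR 4.0.16 in R 4.3.3: TMM scaling, filterByExpr, and the robust quasi-likelihood test on the deposited counts, with Benjamini-Hochberg adjustment over all genes of each comparison at 0.05. Treg fits held all 30 libraries with batch, which is the replicate number of the labels, as a block. Fits over 60 CD8 libraries had the 12 sources as a block, and yfp and genotype fits had batch as a term. Each SE is the log2 fold change divided by the root of F. DESeq2 1.42.0, limma 3.58.1 on the deposited log2 values, other scaling, no filter, other blocks and leave-outs were alternatives. The procedure was tested on simulated counts.

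Deviations from group means correlated at a median of 0.25 in 135 same-batch Treg pairs, of which 134 were over 0.1, and at -0.2 in 270 others. Deviations sum to 0 within a group, so the negative value of the others follows in part from the positive one. In yfp cells all 30 pairs of a library set were over 0.1 (median 0.51). Of 120 CD8 pairs of the same source, 100 were over 0.1 (median 0.31, lowest 0.05). Between replicates of a group, counts differed beyond sampling noise in all 95 pairs. Floors cover counting error only.

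The 8 members are named in every comparison. Of the other pathway genes, at most 4 a comparison are named, those with the smallest adjusted p under 0.05 (1 gene is not reported here), and 3 genes of closest likeness are ranked per member. Members and lists were chosen with earlier results of these data known. Sequences come from RefSeq tables.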

Additional observations from a re-analysis of the deposited data

Results flagged for a closer look

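The 5 DKO populations of 4 libraries give 40 combinations of gene and population, of which 2 (Fut4 in NDLN and NEG) have all libraries at 0. In 5 of the 40 there was 1 value whose gap to its nearest neighbour relative to the group's range exceeded Dixon's 95% critical value, and chance gives about 1 in 20. St3gal4 reached 47.0 CPM in DKO replicate 3 of the node and Cd44 91.9 CPM in DKO replicate 2 (gap ratios 0.864 and 0.924). Selplg reached 1950 CPM in 1 DKO library of NEG cells (0.857), and Fut7 was lowest at 3.11 CPM in 1 DKO library of NEG cells (0.892). Fut4 had 0.0326 CPM in 1 DKO library of INT cells, which is 1 count beside 3 libraries at 0 (ratio 1).

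The change between tumour and node differed between Treg sorts in 4 of 24 tests by edgeR's interaction term. Of all genes 4.49% were called for IL10 against DN Tregs, 1.61% for Ebi3 against DN and 0.178% for IL10 against Ebi3. Cd44 differed by -1.24 ± 0.35 for IL10 against DN Tregs, Gcnt1 by -2.53 ± 0.54 for Ebi3 against DN Tregs, Selplg by 0.62 ± 0.14 for Ebi3 against DN Tregs and B4galt1 by 0.76 ± 0.16 for IL10 against Ebi3 Tregs (log2 scale, SE). With a batch left out, the Cd44 and Gcnt1 calls held in 1 of 3 fits and those on Selplg and B4galt1 in 0 of 3. Without the replicate block no call was left.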

How the results depend on the processing

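No call on a member changed direction under any alternative run. Without the replicate block, member calls among the Treg sorts in tumour were 0, against 3 with it, and those on the difference in site change between sorts 0, against 4. Calls for tumour against node were 7, against 10, those among sorts in the node 7, against 10 (6 higher and 1 lower, 85.7% higher against 70%), and those in the Naive source 9, against 13 (7 higher and 2 lower, 77.8% against 61.5%). The cause was not tested. With the library set as a replicate block yfp cells gave 8 calls, against 7.

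DESeq2 called 4 members for DN Tregs against Teff, against 2 by edgeR, and limma on the deposited log2 values 3 among yfp populations, against 7, on a table without Fut4. The calls that DESeq2 added were St3gal4 and Fut4, and that on Fut4 rests on 12 counts in 1 DN library against 0 in Teff. Differences between sorts were called 2 higher and 4 lower by DESeq2, 1 and 2 by limma and 2 and 1 without the filter, against 2 and 2. Calls in yfp cells were 1 higher and 2 lower by limma, against 4 and 3, and among tumour sorts 1 and 1 by limma, against 2 and 1. Limma moved the median of all genes for tumour against node to -0.20 in IL10, -0.20 in Ebi3 and -0.12 in DN Tregs, against -0.02, -0.04 and 0.01.

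Leaving out 1 batch or source gave 6 to 9 calls for tumour against node, 0 to 1 among tumour sorts, 6 to 8 in the node, 6 to 9 in the Naive source and 0 to 4 for the difference in site change. It gave 3 to 6 among yfp populations, 15 to 19 over all genotypes against 19, and 0 to 1 for Il10 against yfp. Of called single-gene values, 280 of those fits kept the call and 95 lost it. Fut4 was at 0 in 16 of 30 Treg-series libraries, where a count of 0 allows up to the floor of 3 counts.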
